A study of Mus musculus with 17 samples.

Results

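The regulators described here are 10 genes that control how much mitochondrial DNA and respiratory chain a cell makes: Ppargc1b, Pprc1, Esrra, Nrf1, Gabpa, Tfam, Tfb1m, Tfb2m, Polg and Nrip1. They were taken by name from the array, where 23 probes carry one of these names, among 18134 genes tested. Of the 23 probes, 20 had a signal well above background on at least 8 of the 17 arrays and were tested. The tested probes cover all 10 genes, 3 of them with 1 probe, 4 with 2 and 3 with 3.

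The tissue was epididymal white fat, which lies next to the testis, from adult C57BL/6J males. Both groups were fed for 13 weeks on a diet in which fat gave 30% of the energy, and they differed in its carbohydrate, which had a low glycemic index for 8 mice (LGI) and a high one for 9 mice (HGI). The index states how strongly a carbohydrate raises blood glucose. Each mouse had its own 2-colour array, with its RNA in Cy5 and a common pool of every sample in Cy3. A level given below is the log2 ratio of a mouse to that pool, a difference is HGI minus LGI on the same scale, and levels of different genes are not set against each other.

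Per array, 54.2% to 66.7% of gene spots gave a Cy5 signal well above background, and precision is limited by how many arrays there are. All 14 adipocyte markers were well above background on all 17 arrays. HGI 9 and HGI 10 stood apart: their ratios correlated at 0.79, those of either with any other mouse at -0.04 to 0.15, and the mean of 7 seminal vesicle genes was 1.59 and 1.58 in them against -4.30 to -3.93 in the LGI mice. Beside a difference that moves by over 1.5 times or changes sign without these 2 mice, the value without them is therefore given too. The labels number the mice but say nothing more of each animal, so a p-value reflects only how far these samples vary, which may be technical.

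Mitochondrial proteins are encoded in both the nucleus and the mitochondrial DNA, and cells match the supply from both. Coactivators of the PGC-1 family bind nuclear receptors and the respiratory factors NRF-1 and GABP, and these switch on respiratory chain genes and the proteins that copy and transcribe mitochondrial DNA. The corepressor RIP140 opposes this program in white fat, where mitochondria also supply the substrates and energy for making and burning lipid.

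No regulator passed the test for a difference between the diets. In limma with Benjamini-Hochberg adjustment, 0 of the 10 genes had an adjusted p under 0.05, and the same held for 0% of all 18134 genes. At an unadjusted p under 0.05, 1 of the 10 was called, Ppargc1b, against 1404 genes or 7.74% of all those tested. Those 1404 genes split into 3.78% of all genes lower and 3.96% higher in HGI. In sign, 7 regulators were lower and 3 were higher in HGI, beside 47.4% of all genes lower, and the median difference was -0.10 against 0.01 over all genes. That median was -0.03 without LGI 4, with 6 lower, and it was -0.09 without HGI 9 and HGI 10, with 7 lower.

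**Figure D1:**
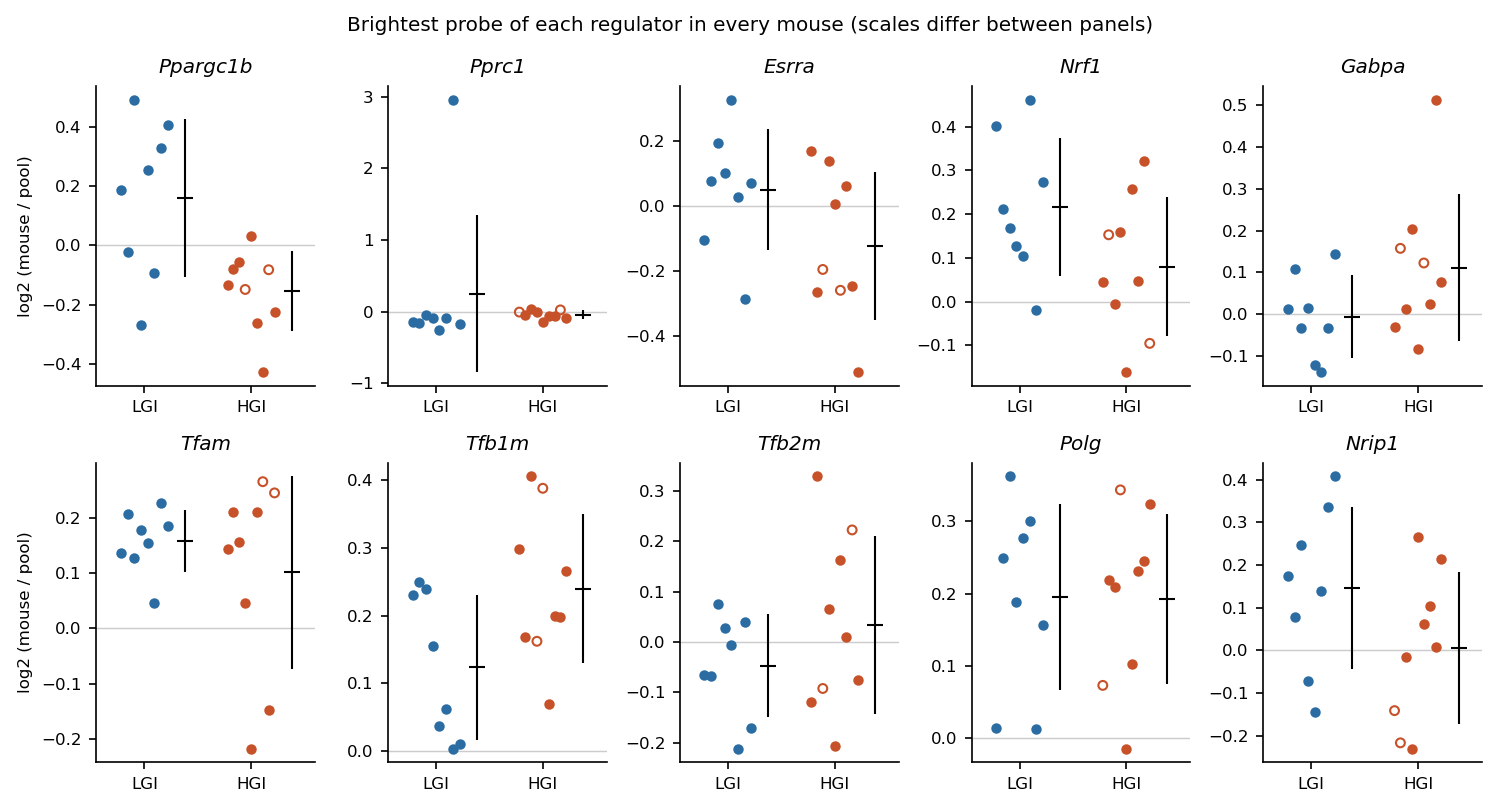
Level of the brightest probe of each regulator in every mouse, as the log2 ratio of the mouse to the pool, with blue points for LGI (8 mice), orange points for HGI (9 mice), open points for HGI 9 and HGI 10, and a bar for the mean and SD. All 9 HGI mice lie below the LGI median in Ppargc1b, 1 LGI mouse lies at 2.96 in Pprc1, and the groups overlap in every panel.

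Among the coactivators, Ppargc1b encodes PGC-1β, which drives respiratory and lipid genes together with the estrogen-related receptors. Its brightest probe ranged from -0.27 to 0.49 in the LGI mice, with a median of 0.22, and from -0.43 to 0.03 in the HGI mice, with a median of -0.13. Each of the 9 HGI mice was under the LGI median, and 5 of the 8 LGI mice lay above every HGI mouse, while LGI 8, at -0.27, lay below all but HGI 6. The difference was -0.31 ± 0.10 (SE), a level in HGI of 0.804 times that in LGI with a 95% interval of 0.700 to 0.923, at an unadjusted p = 0.00354 and an adjusted p = 0.520 in limma.

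The second Ppargc1b probe, designed on the same transcript, repeated this pattern at -0.27 ± 0.10 (unadjusted p = 0.00995 in limma, beside 4.03% of all tested probes called lower at this level), again with each of the 9 HGI mice under the LGI median. The third, designed on an unclassified cDNA that the array assigns to the gene, differed by -0.18 ± 0.08 (unadjusted p = 0.0408), with 7 of 9 HGI mice below the LGI median. Over the 15 arrays without HGI 9 and HGI 10, the first and second probes correlated at 0.92 and the third with them at 0.63 and 0.61. The remaining probe was not well above background on any array. Of 1499 genes with at least 3 tested probes, 5 genes or 0.334% had all of them at an unadjusted p under 0.05 in one direction; looked up after the values were seen, these were Ppargc1b, Adipor2, Nfia and Pik3r1, lower in HGI, and Ugcg, higher in HGI.

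Adipocyte, macrophage and mesothelium markers also leaned one way between the diets, and no marker passed the adjusted test. In this whole tissue, fewer cells of a type and less RNA per cell cannot be told apart. Not every marker list leaned: of 6 T cell markers, 3 were lower in HGI and 3 higher. Of 6 endothelium markers, 5 were lower, or 2 without HGI 9 and HGI 10. Of 14 adipocyte markers, 12 were lower in HGI, and their mean ranged from -0.23 to 0.19 in LGI and from -0.26 to 0.02 in HGI. Of 14 macrophage markers, all well above background on every array, 13 were higher, with a mean from -0.27 to 0.02 in LGI and from -0.18 to 0.44 in HGI. All 6 mesothelium markers, of the cell layer that covers this fat pad, were lower, with a median difference of -0.22 and a mean from -0.04 to 0.54 in LGI and from -0.34 to 0.41 in HGI. At an unadjusted p under 0.05, 4 adipocyte and 4 mesothelium markers were lower and 4 macrophage markers were higher, beside 3.78% of all genes lower and 3.96% higher. The Ppargc1b difference was -0.32 with the adipocyte mean in the fit, -0.21 with the macrophage mean and -0.31 with the mesothelium mean, the last added after seeing the data. It was -0.34 in the first 8 arrays scanned, -0.29 in the later 9 and -0.33 without HGI 9 and HGI 10.

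Pprc1 encodes PRC, the family member that responds to serum and growth signals. Its single probe ranged from -0.15 to 0.04 in the 9 HGI mice, with a median of -0.05, and from -0.26 to 2.96 in LGI, with a median of -0.12. The high value belongs to LGI 4 alone, and the next highest LGI mouse was at -0.05. The difference of -0.29 ± 0.32 (adjusted p = 0.847 in limma) rested on that mouse: without LGI 4 it was 0.10 with the opposite sign.

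The spot behind the LGI 4 value differed from the same spot on the other 16 arrays. Its Cy5 mean signal was 2086 against 207 to 304 elsewhere, while its Cy3 signal of 315 lay within the 277 to 343 of the others. The SD over its Cy5 pixels was 487 against 16.4 to 29.2, and its local Cy5 background of 151, against 49 to 55, carried the scanner software's flag for non-uniformity, which none of the other 16 carried. Within 3 rows and 4 columns of it, 20 of 60 gene spots carried that flag on LGI 4, against 0 on 15 of the other arrays and 1 on HGI 6. It was the only flagged spot of this kind among the member probes. With such spots left out, an alternative added after seeing the data, the Pprc1 difference was 0.10. In the authors' deposited values LGI 4 was at 9.55 and HGI 4 at 10.69, beside a median of 8.37 over the other 15 arrays. The HGI 4 value has no counterpart in the scanner ratio of -0.09 for that mouse.

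Esrra encodes ERRα, the nuclear receptor through which PGC-1 coactivators reach many respiratory genes. Its brightest probe ranged from -0.29 to 0.33 in LGI, with a median of 0.07, and from -0.51 to 0.17 in HGI, with a median of -0.19. The difference was -0.17 ± 0.10 (adjusted p = 0.695), and 7 of 9 HGI mice lay below the LGI median. It was -0.12 with the adipocyte mean in the fit, -0.25 with the macrophage mean and -0.29 with the mesothelium mean. In the first 8 arrays scanned it was -0.04, and in the later 9 it was -0.30. The second Esrra probe differed by -0.01 ± 0.07, or 0.04 without HGI 9 and HGI 10, and its correlation with the first over 15 arrays was 0.19.

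Nrf1 encodes the nuclear respiratory factor NRF-1, which binds promoters of respiratory genes. It was dim, well above background on 16 of 17 arrays. Levels ran from -0.02 to 0.46 in LGI, with a median of 0.19, and from -0.16 to 0.32 in HGI, with a median of 0.05. The difference was -0.14 ± 0.08 (adjusted p = 0.707) and the groups overlapped. A second Nrf1 probe was well above background on 5 arrays and was not tested.

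Gabpa encodes the DNA-binding subunit of GABP, also called NRF-2. Levels of its brightest probe ran from -0.14 to 0.14 in LGI, with a median of -0.01, and from -0.08 to 0.51 in HGI, with a median of 0.08. The difference was 0.12 ± 0.07 (adjusted p = 0.727) and was 0.07 without HGI 6, which holds the highest value. The other Gabpa probes differed by 0.08 ± 0.08, or 0.14 without HGI 9 and HGI 10, and by 0.11 ± 0.08. All 3 had the same sign, as had all probes of 34.4% of the 1499 genes with at least 3, yet the other 2 correlated at 0.85 with each other over 15 arrays and at -0.04 and 0.01 with the brightest. The brightest Gabpa probe thus did not follow the other 2 across mice, though all were designed on one transcript.

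Nrip1 encodes RIP140, the corepressor of this group. Its brightest probe ran from -0.15 to 0.41 in LGI, with a median of 0.16, and from -0.23 to 0.27 in HGI, with a median of 0.01. The difference was -0.14 ± 0.09 (adjusted p = 0.724), with 7 of 9 HGI mice below the LGI median, and -0.09 without HGI 9 and HGI 10. The other probes, on cDNA clones, differed by -0.12 ± 0.09 and -0.02 ± 0.12, the latter at 0.08 without those 2 mice. The difference of the brightest probe was -0.0050 with the adipocyte mean in the fit, -0.17 with the macrophage mean and -0.17 with the mesothelium mean. With no marker mean in the fit, Nrip1 was lower in sign, as was the coactivator Ppargc1b, and neither passed the test. With the adipocyte mean, Ppargc1b was at -0.32.

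The 4 remaining members act inside mitochondria. Tfam packages mitochondrial DNA and starts its transcription, and its brightest probe ran from 0.05 to 0.23 in LGI, with a median of 0.17, and from -0.22 to 0.27 in HGI, with a median of 0.16. That probe was designed on an entry that describes a testis form of the protein beside the mitochondrial one, and it differed by -0.06 ± 0.07 (adjusted p = 0.862). The probe on the Tfam reference transcript differed by -0.12 ± 0.07 (unadjusted p = 0.103), with 6 of 9 HGI mice below the LGI median, and the 2 probes correlated at 0.25. The 2 lowest HGI mice of the first probe, HGI 1 and HGI 2, were at -0.22 and -0.15. The difference of that probe was -0.02 without HGI 1 and -0.10 without HGI 9 and HGI 10. It was -0.11 with the adipocyte mean in the fit, -0.05 with the macrophage mean and 0.02 with the mesothelium mean.

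Tfb1m is a methyltransferase of mitochondrial ribosomal RNA. It ran from 0.0035 to 0.25 in LGI, with a median of 0.11, and from 0.07 to 0.41 in HGI, with a median of 0.20. The difference was 0.12 ± 0.06 (adjusted p = 0.668), and 4 HGI mice lay above every LGI mouse while 4 LGI mice lay below every HGI mouse. The second Tfb1m probe differed by 0.02 ± 0.06, or 0.04 without HGI 9 and HGI 10.

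Tfb2m is the transcription factor that works with Tfam at mitochondrial promoters. It ran from -0.21 to 0.08 in LGI, with a median of -0.04, and from -0.21 to 0.33 in HGI, with a median of 0.01. Its 2 probes differed in sign, 0.08 ± 0.07 (adjusted p = 0.810) for the brightest and -0.09 ± 0.06 for the other. Without HGI 6 the brightest was at 0.04.

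Polg, the catalytic subunit of the mitochondrial DNA polymerase, ran from 0.01 to 0.36 in LGI and from -0.01 to 0.34 in HGI, with a median of 0.22 in both. Its difference was -0.0026 ± 0.07, with a 95% interval of -0.14 to 0.13, and was -0.0070 without HGI 9 and HGI 10.

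**Figure D2:**
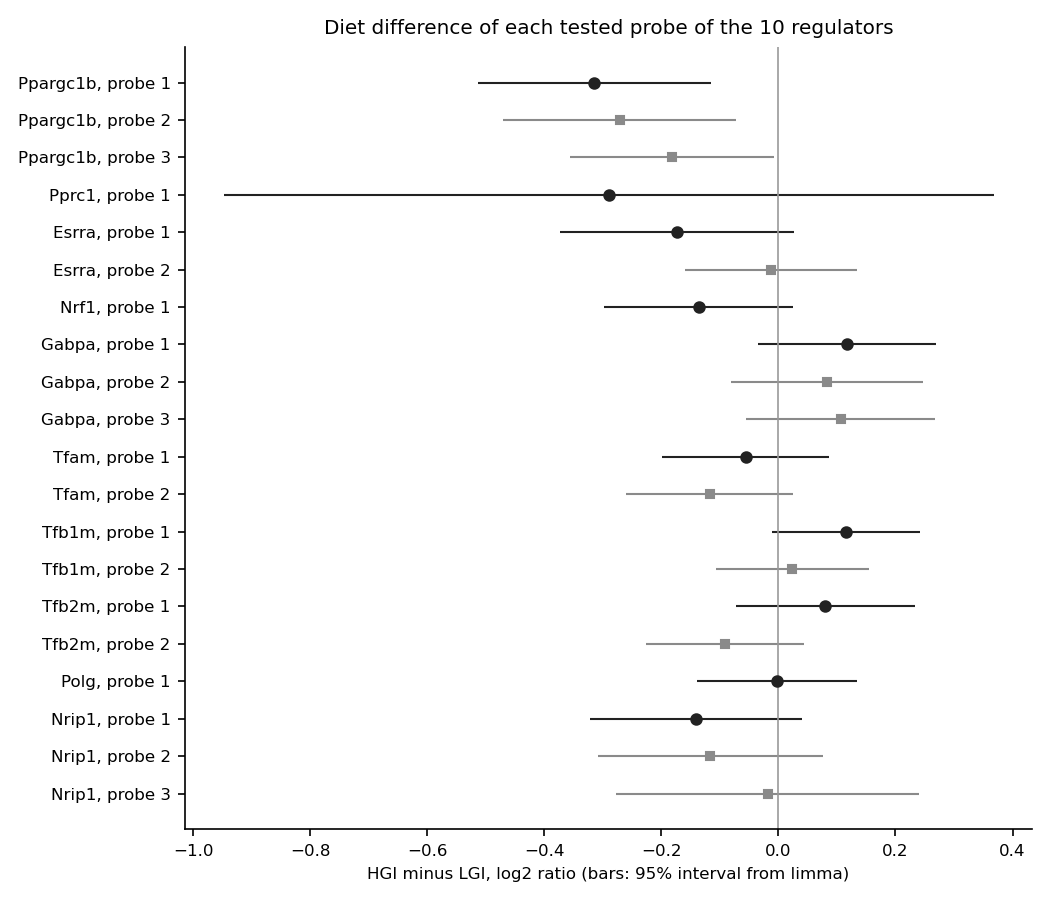
Difference between the diets, HGI minus LGI in log2 ratio, for the 20 tested probes of the 10 regulators, with 95% intervals from limma (black circles for the brightest probe of a gene, grey squares for its others). The intervals of the 3 Ppargc1b probes lie below 0, those of the other 17 cross 0, and Tfb2m is the gene whose probes differ in sign.

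Probes of one regulator followed each other to very different degrees. Over 13 pairs of probes of the same member, the median correlation across 15 mice was 0.25 and 1 pair was below 0. Over 9940 such pairs of all genes the median was 0.14, and 35.4% were below 0. The 3 Ppargc1b pairs, at 0.61 to 0.92, 1 Gabpa pair and the pair of Nrip1 probes at 0.63 were the pairs above 0.5. The remaining pairs lay between -0.04 and 0.26, and in them a single probe said little about what the other read in the same mouse. Pprc1, Nrf1 and Polg had 1 tested probe each and so no pair.

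NRF-1 and GABP are known to act through short letter patterns in promoters, and the start-site windows of the members themselves were searched for them. RefSeq windows of 300 bases (250 before the start and 50 after, assembly GRCm38.p6) were matched for 9 of the 10 members. The pattern GCATGCGC, part of the NRF-1 palindrome, was found on either strand in Esrra and Tfb2m and in 2.71% of all 32851 windows. The GABP pattern CCGGAAGT was found in Tfam and Polg and in 3.89% of all windows. The stretches below show these 4 matches with 11 bases on each side, 5′ to 3′ on the gene's strand, with the pattern in capitals, because in them 4 of the regulators carry letters that 2 others, NRF-1 and GABP, can read.
Esrra, chr19:6921824-6921853, minus strand: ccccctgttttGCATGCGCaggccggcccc
Tfb2m, chr1:179546245-179546274, minus strand: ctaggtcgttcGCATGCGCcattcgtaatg
Tfam, chr10:71238073-71238102, minus strand: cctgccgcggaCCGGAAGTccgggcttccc
Polg, chr7:79466293-79466322, minus strand: gaggacctcacCCGGAAGTccctctgcacc
The whole NRF-1 palindrome was in 0 members and in 0.971% of all windows, and the ERRα pattern TCAAGGTCA was in 0 members and in 0.423%. Among 44 windows of genes whose names start with Nduf, 5 held GCATGCGC and 1 held CCGGAAGT. A match is a description of letters and not a bound site. Across 15 mice Esrra and Tfb2m correlated at -0.48, or at -0.13 without HGI 6, and Tfam and Polg at -0.14.

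Other genes of the pathway showed differences of the same small size, and 0 of them passed the adjusted test, in lists drawn up from textbook roles. Of 19 partners and upstream regulators of the PGC-1 coactivators, 14 were lower in HGI and 2 of these had an unadjusted p under 0.05, beside 3.78% of all genes called lower. These were Prkaa1, a catalytic subunit of the energy sensor AMPK, at -0.21 ± 0.07 (unadjusted p = 0.00412 in limma), and the coactivator Ncoa1 at -0.18 ± 0.08. Myc, a growth regulator, was at 0.18 ± 0.10 and at 0.07 without HGI 9 and HGI 10.

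Ppargc1a, the best known coactivator of the family, differed by -0.11 ± 0.07 (adjusted p = 0.727) on its brightest probe. Its second probe, on the reference transcript, differed by -0.30 ± 0.10 (unadjusted p = 0.00991 and adjusted p = 0.567 in limma). At an unadjusted p under 0.05, 4.03% of all tested probes were called lower. On that second probe 6 of 9 HGI mice lay below every LGI mouse and 4 of 8 LGI mice above every HGI mouse. The corepressor partners of RIP140 had 4 of 6 lower, with Hdac3, a histone deacetylase, at -0.13 ± 0.10, and Ctbp1 and Ncor1 at -0.05 ± 0.06 each. Without HGI 9 and HGI 10, 3 of these 6 were lower and Hdac3 was at -0.07.

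The machinery that works beside Tfam, Tfb2m and Polg had 17 of 22 tested genes lower, with a median of -0.05, or -0.03 without HGI 9 and HGI 10. At an unadjusted p under 0.05, 1 of the 22 was lower and 1 higher, near the 3.78% and 3.96% of all genes. Rrm2b, which supplies nucleotides for mitochondrial DNA, was at -0.13 ± 0.06, the nuclease Mgme1 at -0.13 ± 0.06 and the ligase Lig3 at 0.17 ± 0.08. Polrmt, the mitochondrial RNA polymerase, was at 0.0069 ± 0.07, or 0.02 without HGI 9 and HGI 10. Among 24 mitochondrial RNA processing and translation factors 14 were lower, with Lrpprc, which stabilizes mitochondrial messenger RNA, at -0.19 ± 0.08, Trmt10c at -0.18 ± 0.09 and Ptcd1 at 0.16 ± 0.06.

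Fusion, fission and inner membrane quality control genes had 6 of 10 lower, with the proteases Yme1l1 at 0.11 ± 0.05 and Oma1 at -0.28 ± 0.16 and the scaffold protein Phb at 0.06 ± 0.06. Oma1 was also highest in LGI 4, at 1.57, and its difference was -0.10 without that mouse. Textbook targets of ERRα, NRF-1 and RIP140 had 8 of 11 lower, with Cidea at -0.17 ± 0.13, Fabp3 at 0.17 ± 0.16, Tomm70a at -0.06 ± 0.07 and cytochrome c (Cycs) at -0.04 ± 0.08. Without HGI 9 and HGI 10, 6 of the 11 were lower, with Cidea at -0.09, Fabp3 at -0.04, Tomm70a at -0.04 and Cycs at 0.02.

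Genes of the respiratory chain went both ways, and those with a low unadjusted p were nearly all lower in HGI. Of the 44 tested Nduf genes of complex I, 30 were lower in HGI with a median of -0.02, and 6 were lower and 1 higher at an unadjusted p under 0.05, beside 3.78% and 3.96% of all genes. Ndufv1 was at -0.14 ± 0.06 and Ndufa5 at -0.20 ± 0.09. Of 48 genes of the other respiratory complexes and ATP synthase 26 were lower with a median of -0.01 (-0.02 without HGI 9 and HGI 10), led by Atp5g3 at -0.29 ± 0.09, Atp5c1 at -0.19 ± 0.06 and Uqcrc2 at -0.21 ± 0.07, and 7 were lower and 0 higher at an unadjusted p under 0.05.

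**Figure D3:**
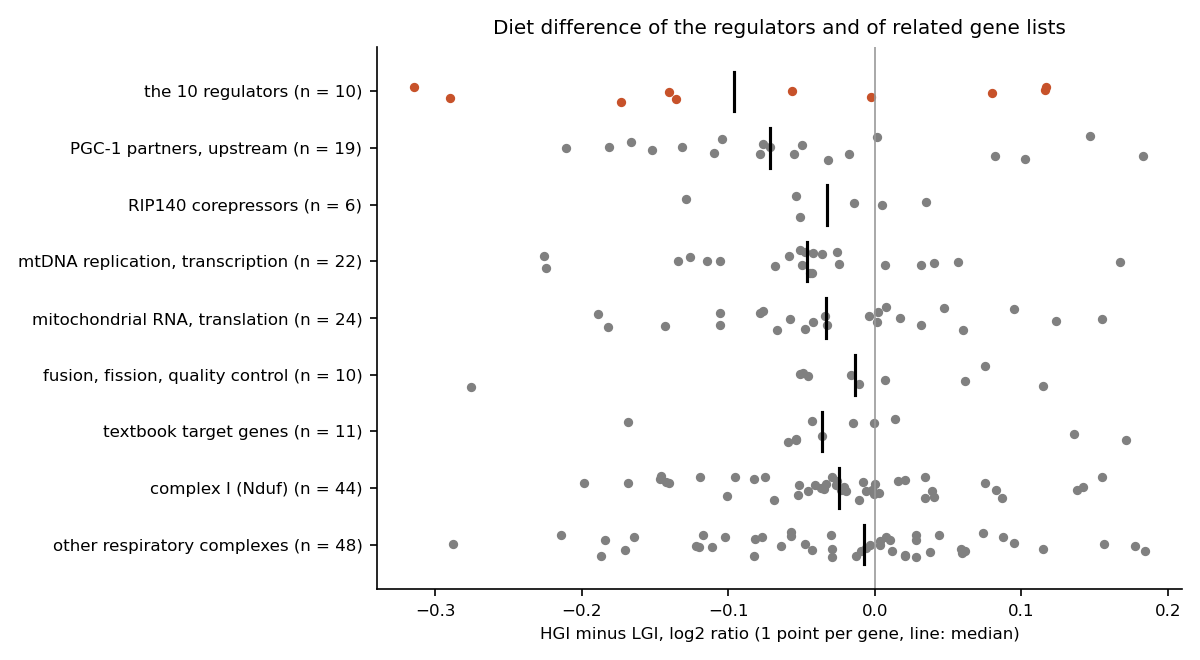
Difference between the diets, HGI minus LGI in log2 ratio, for the 10 regulators (orange) and for genes of 8 related lists (grey), with 1 point per gene and a black line at the median. The regulators have their median at -0.10, the respiratory lists at -0.02 and -0.01, and every list spreads to both sides of 0.

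Across mice few pairs of regulators followed each other, and which pairs did so depended on single mice. Among 45 pairs of members, over the 15 arrays without HGI 9 and HGI 10, 1 pair or 2.22% correlated at 0.5 or more, against 6.17% of all pairs of tested genes, and 3 pairs or 6.67% at -0.5 or less, against 5.14%. The pair at or above 0.5 was Esrra with Nrip1, at 0.61. The 3 opposite pairs over these 15 arrays contained the brightest Gabpa probe. Gabpa was at -0.75 with Nrip1, at -0.68 with Esrra and at -0.59 with Ppargc1b. HGI 6, the highest mouse in Gabpa, was the lowest in Ppargc1b, Esrra and Nrip1, and without it these 3 values were -0.66, -0.41 and -0.44. Without HGI 6, Esrra with Nrip1 was at 0.43, the 2 pairs at 0.5 or more were Nrf1 with Tfb2m at 0.60 and Tfb2m with Polg at 0.56, and 2 pairs were at -0.5 or less, the other being Gabpa with Tfb2m at -0.51. Without LGI 4, whose Pprc1 spot is described above, 2 pairs were at 0.5 or more and 6 at -0.5 or less. These included 2 without Gabpa, Pprc1 with Nrip1 at -0.68 and Pprc1 with Esrra at -0.66. These correlations describe 15 mice that share 1 reference pool and carry no test.

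**Figure D4:**
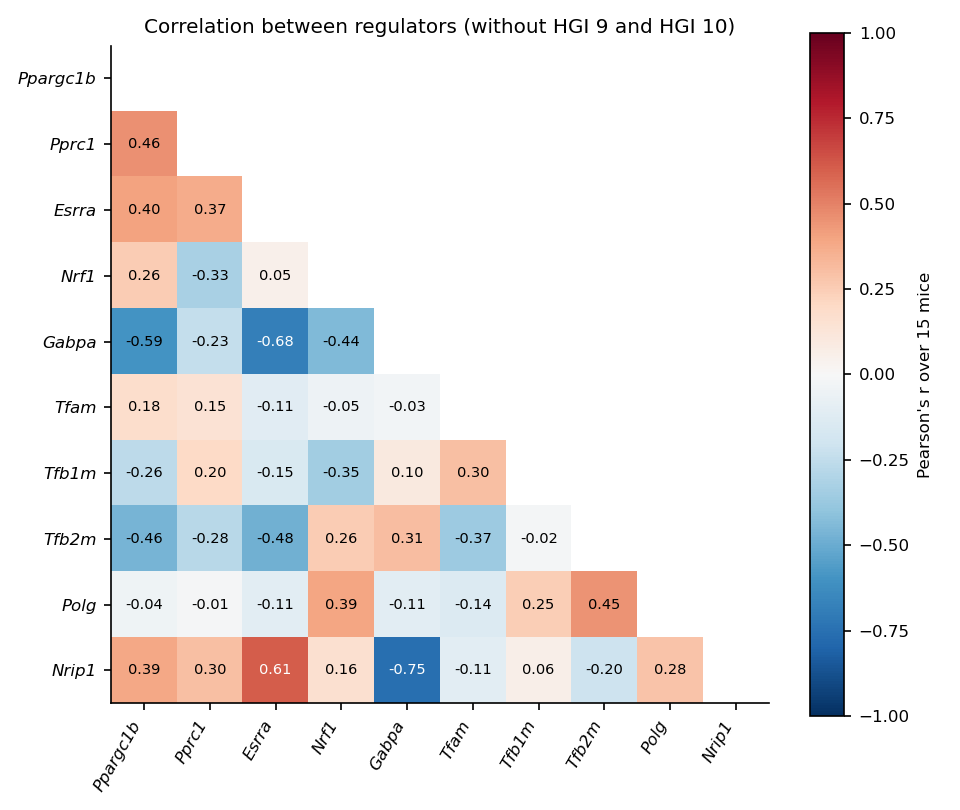
Pearson correlation between the 10 regulators over 15 mice, brightest probe of each, with red for positive and blue for negative values. The row of Gabpa holds the lowest values, -0.68 with Esrra and -0.59 with Ppargc1b, and the lowest of all is -0.75 between Gabpa and Nrip1.

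The genes most like each regulator across the 15 mice, out of 14266 with a gene symbol, were named by correlation alone. Each is 1 of the 2 highest of that many correlations, so its height alone shows no relation, and none was tested. Ppargc1b was most like Riok1 (0.88) and Pabpn1 (0.86), Esrra was most like Zfp414 (0.90) and Mrvi1 (0.89), and Nrip1 was most like Fbxo9 (0.87) and Kpnb1 (0.83). Nrf1 was most like Eef2k (0.88) and Brap (0.86), and Gabpa was most like Pfkfb2 (0.97) and Zfp512 (0.96), which were at 0.91 and 0.88 without HGI 6. Tfam was most like Zbtb7c (0.87) and Ptgis (0.85), and Tfb1m was most like Gzme (0.91) and Minpp1 (0.90). Tfb2m was most like Ncstn (0.88) and Pdk4 (0.87), which were at 0.78 and 0.76 without HGI 6. Polg was most like Olfr1195 (0.85) and Acnat1 (0.84). Over all 17 mice Esrra with Mrvi1 was at 0.38 and Tfam with Zbtb7c at 0.48. The other pairs of this paragraph were then at 0.65 to 0.97.

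Pprc1 was most like Mmp14 (0.995) and Trim67 (0.986), and without LGI 4 these values were 0.54 and 0.49. The Mmp14 spot lies 2 columns from the Pprc1 spot in the same row of the array, and on LGI 4 its Cy5 signal was 41943 beside a Cy3 signal of 2233.

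Whether the regulators follow the respiratory chain from mouse to mouse was asked against the mean of the 44 Nduf genes. That mean spanned little, from -0.04 to 0.16, and averaged 0.04 ± 0.07 (SD, n = 8) in LGI and 0.02 ± 0.04 (SD, n = 9) in HGI. LGI 4 at 0.16 and LGI 2 at 0.12 were the 2 mice farthest from its median. In limma 0 of 18090 other genes passed an adjusted p under 0.05, and 1039 or 5.74% had an unadjusted p under 0.05. Without HGI 9 and HGI 10 these counts were 0 and 1295, or 7.16%.

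Over 17 mice Pprc1 had the highest correlation with the Nduf mean (r = 0.62, permutation p = 0.0329; rho = 0.19, permutation p = 0.460; adjusted p = 0.595 in limma). Ppargc1b followed (r = 0.46, permutation p = 0.0626; rho = 0.27, permutation p = 0.299; adjusted p = 0.861 in limma), and then Nrip1 (r = 0.45, permutation p = 0.0727; rho = 0.40, permutation p = 0.114; adjusted p = 0.880 in limma). These were 3 of 10 regulators at 0.4 or more, against 6.73% of all genes. The other 7 lay between -0.29 for Gabpa and 0.12 for Polg, and no adjusted p was under 0.05. At the cut of 0.5 used above for pairs of regulators, Pprc1 alone remained. Without LGI 4 the highest of the 10 correlations was 0.31, so the count at 0.4 depended on that mouse.

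Both coactivator relations rested on the mice at the high end of the Nduf mean. Without LGI 4 the Pprc1 correlation was -0.04 and the Ppargc1b correlation was 0.22. Without LGI 4 and LGI 2, over 15 mice, they were -0.15 (permutation p = 0.599) and -0.16 (permutation p = 0.560), while Nrip1 was at 0.26 (permutation p = 0.350). Without HGI 9 and HGI 10 in place of these, the values were 0.62 for Pprc1, 0.45 for Ppargc1b and 0.46 for Nrip1.

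Within the diets, Ppargc1b correlated with the Nduf mean at 0.48 over the LGI mice (exact permutation p = 0.227) and at 0.19 over the HGI mice (exact permutation p = 0.636). For Nrip1 these values were 0.57 (exact permutation p = 0.137) and 0.13 (exact permutation p = 0.740), and for Pprc1 0.71 (exact permutation p = 0.0279), with LGI 4 among the LGI mice, and -0.41 (exact permutation p = 0.280). The difference between the diets in these relations was not tested.

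The relation also depended on the probe. Gabpa was at -0.29 on its brightest probe and at 0.36 and 0.34 on the others over 17 mice, and at -0.03, 0.57 and 0.48 without LGI 4 and LGI 2. Tfam was at 0.05 on its brightest probe and at 0.40 on that of the reference transcript, which was at 0.10 without those 2 mice. The other Ppargc1b probes were at 0.39 and 0.33, and at -0.0037 and -0.10 without LGI 4 and LGI 2.

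**Figure D5:**
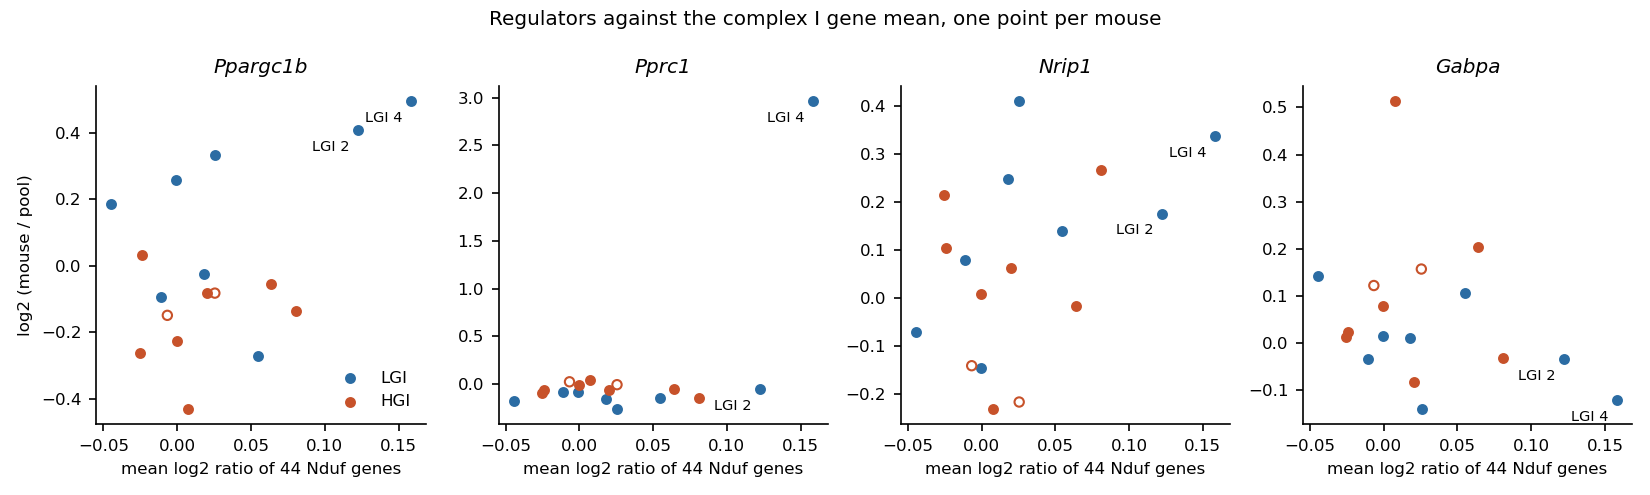
Level of 4 regulators (vertical axis, log2 ratio of mouse to pool) against the mean log2 ratio of 44 Nduf genes (horizontal axis), 1 point per mouse, blue for LGI, orange for HGI and open for HGI 9 and HGI 10. LGI 4 and LGI 2 are the 2 mice at the right, the Pprc1 panel holds 1 value of 2.96, and without these 2 mice the Ppargc1b correlation is -0.16.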

How the data were processed

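Per the file headers, the deposited scanner files hold spot intensities in both dyes (mean signal, median local background, processed signals) and quality flags, written by Agilent Feature Extraction 9.1.3.1; version 9.5.1.1 is named in the submitters' processing notes. The authors also deposited log2 values per Cy5 sample; their columns have medians near 8.33, and with scale, centring and filter not stated they served only as an alternative. 500 ng of RNA was labelled per mouse, per the labels' protocols.

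In limma 3.58.1 (R 4.3.3), background was corrected by normexp (offset 50) and Cy5 to Cy3 ratios were normalized within arrays by loess. Of 43790 spots, 2256 controls and 4 to 43 flagged spots per array were left out, and spots of a probe were averaged. Probes well above background in Cy5 on at least 8 arrays were tested (25515 of 41174), and a gene is its brightest such probe. Probes were named through accessions and symbols of a RefSeq table (23374 by accession, 6733 by symbol, 2919 by an older symbol, and 8148 kept the file's name). The diets were compared by lmFit and eBayes over 17 arrays, with Benjamini-Hochberg adjustment over all genes; for a gene's other probes, over all tested probes. Permutation tests of correlations were two-sided, exact within a diet and with 100000 resamples otherwise, over 120 relations (20 probes, 6 sets of mice). The functions were tested on simulated data.

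Named genes are all members, the 3 lowest-p genes of each pathway list, Ppargc1a, Cycs and Polrmt, and the 2 genes most like each member. Members and lists were chosen with earlier results of these data known. All arrays were scanned on 1 date with 1 slide each, so neither could serve as a batch, and scan order was used instead, which is no extraction batch. The labels do not say whether the 7 replicate numbers that both diets share pair mice. Deviations of mice with the same number correlated at -0.38 to 0.26, over 0.1 in 3 of 7. That cannot show whether a pairing existed, and the numbers were not used as pairs in the main fit. One gene chosen by the naming rule is not reported here.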

Additional observations from a re-analysis of the deposited data

Results flagged for a closer look

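Among 74 groups checked (37 named genes in 2 diets), 5 held a mouse far from the rest by Dixon's criterion at the 95% level, and chance gives about 1 in 20. Pprc1 in LGI 4 was at 2.96, with the next mouse at -0.05; the spot's signal and background are given in the report. Gabpa in HGI 6 was at 0.51, with the next at 0.20; its Cy5 signal of 317 lay within the 217 to 331 of the other arrays, its Cy3 signal of 258 lay just below their 269 to 345, and the other Gabpa probes were at 0.23 and 0.17 in that mouse. Ncor1 in LGI 2 was at 0.46, with the next at 0.16. Oma1 in LGI 4 was at 1.57, with the next at 0.64. Fabp3 in LGI 9 was at 0.44, with the next at -0.21.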

How the results depend on the processing

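No regulator passed an adjusted p under 0.05 for the diet difference under any setting tried, and the sign of Ppargc1b, Esrra, Nrf1 and Tfb1m was kept in all settings that gave a value (34 for Nrf1, 36 for the others). Ppargc1b ranged from -0.51 with the scanner software's processed signals to -0.19 in the authors' deposited values, with an adjusted p between 0.229 and 0.999. Over all genes the count past the threshold, 0 in limma with 1404 at an unadjusted p under 0.05, was 1 with the Cy5 channel alone, 1 with array weights and 0 to 3 with 1 mouse left out, the 3 without LGI 7. Median centring moved the median difference of all genes to 0.02 and the share of genes lower in HGI to 41.1%.

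Signs turned mostly where the difference was near 0. Without HGI 9 and HGI 10, Fabp3 was at -0.038 and Cycs at 0.023. With processed signals Polg was at 0.029, and with no background correction Polrmt was at -0.0022. Median centring gave 0.00076 for Tfam, 0.017 for Polg and 0.029 for Cycs, and the Cy5 channel alone gave 0.0059 for Tfam and 0.0084 for Polg. In the authors' deposited values Pprc1 was at 0.28, Tfb2m at -0.013, Polg at 0.16, Mgme1 at 0.043 and Tomm70a at 0.012. The mean of all tested probes gave -0.0054 for Tfb2m, -0.0026 for Phb and 0.037 for Cycs, and array weights gave 0.015 for Polg and 0.031 for Cycs. With the adipocyte mean in the fit Polg was at 0.058, Hdac3 at 0.061, Fabp3 at -0.21 and Cycs at 0.077, and with the macrophage mean Ncor1 was at 0.045 and Polrmt at -0.034. With the mesothelium mean Tfam was at 0.017, Ncor1 at 0.038, Cycs at 0.013 and Polrmt at -0.070. In the first 8 arrays scanned Pprc1 was at 0.049, Gabpa at -0.0010, Polg at 0.042, Nrip1 at 0.039, Oma1 at 0.091 and Cycs at 0.024, and in the later 9 Polrmt was at -0.038. Without spots of non-uniform background Pprc1 was at 0.10. With 1 mouse left out Pprc1 ranged from -0.36 to 0.10, Polg from -0.029 to 0.023, Cycs from -0.071 to 0.012 and Polrmt from -0.023 to 0.034. Except where leaving out LGI 4 shows it, the cause of these changes was not tested.

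Replicate numbers were not used as pairs in the main fit. With the replicate block over the 14 arrays of shared numbers 0 genes passed, as without it, and Polrmt was at -0.021 in both fits; Ppargc1b was at -0.38 in both.

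For the relation to the Nduf mean, the count of genes past the threshold, 0 over 17 mice, was 2 against the other respiratory complexes. It was 0 to 2 with 1 mouse left out (2 without HGI 1). With median centring it was 5114, beside the 18090 genes tested over 17 mice. Under that setting Tfam at 0.61 (adjusted p = 0.0440 in limma) and Nrip1 at 0.77 (adjusted p = 0.00249) passed. With so many genes past the threshold, their passing does not set these regulators apart from genes at large. Median centring also turned Ppargc1b to -0.071, Pprc1 to -0.086, Gabpa to 0.30 and Tfb2m to 0.54. Without LGI 4 and LGI 2, Ppargc1b was at -0.16, Pprc1 at -0.15, Esrra at -0.13, Tfam at -0.15 and Tfb2m at 0.12. With diet in the fit Esrra was at -0.025, Nrf1 at -0.10 and Tfam at -0.00051, and with the adipocyte mean Esrra was at -0.12, Nrf1 at -0.22 and Polg at -0.042. Against the subunits alone Nrf1 was at -0.0075, and against the other complexes Esrra was at -0.027. In the authors' deposited values Pprc1 was at -0.079, Esrra at -0.12, Tfam at -0.29 and Tfb2m at 0.36. Without spots of non-uniform background Pprc1 was at -0.041, and the mean of all tested probes gave 0.14 for Gabpa, -0.15 for Tfb1m and 0.12 for Tfb2m. With 1 mouse left out the correlation ranged from -0.043 to 0.72 for Pprc1, -0.28 to 0.24 for Esrra, -0.13 to 0.22 for Nrf1, -0.10 to 0.31 for Tfam, -0.038 to 0.28 for Tfb1m, -0.34 to 0.011 for Tfb2m and -0.017 to 0.20 for Polg.

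Slide and scan date could not be fitted as blocks, with 1 array per slide and 1 date, and were not run; the scan order settings, the mesothelium mean, the settings on non-uniform background, and for the relation the mean of all tested probes and leaving out 1 mouse were added after seeing the data. Signal limits Nrf1, which is dim, and the 3 probes that were not tested.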
